A study of Mus musculus with 6 samples.

Results

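The genes described are 52 transcripts taken by symbol from a list. Type I interferon is known to induce them or they carry its signal, except Ifngr1 and Ifngr2, the receptor genes of interferon gamma. All 52 were present among the 13008 genes of the table, and each was measured with at least 56 reads in every sample. The RNA came from macrophages of regenerating skeletal muscle, sorted as F4/80+/Ly6C Low cells 5 days after cardiotoxin, a snake venom toxin that destroys muscle fibers. Control mice are labelled wild type, and the Cripto KO mice (Tg:LysMCre::Cripto-/-) lack Cripto, a membrane-anchored co-receptor that modulates TGFβ signaling, in cells that express Cre from the lysozyme M locus, that is in the myeloid lineage. Both groups are labelled C57BL/6J, male and 3 months old, with 3 samples each. The study describes the cells as GFP+, sorted on a Cre-dependent reporter, and its Control as LysMCre mice with that reporter and without the floxed Cripto alleles, so LysMCre may be shared by both groups. Deletion by LysMCre need not reach every macrophage. By genomic PCR the study found deletion incomplete, and more complete in GFP+ cells than in macrophages as a whole. It also reported less Cripto protein in GFP+ macrophages of the Cripto KO. The Cripto transcript itself was not analysed here, so the genotype labels were not checked against it.

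Type I interferons bind the receptor pair IFNAR1 and IFNAR2, whose kinases JAK1 and TYK2 signal to the ISGF3 complex, of which STAT2 and IRF9 are parts. ISGF3 binds interferon-stimulated response elements, and the transcripts so induced encode sensors, antiviral effectors, ubiquitin-like modifiers and further interferon regulatory factors. Macrophages both make and answer interferon, and a low tonic signal keeps many of these genes expressed without infection. IRF7 and STAT2 are themselves induced, so that the response can feed forward.

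The libraries held 12688968 to 14141773 reads in Control and 14633880 to 15659847 in Cripto KO. Macrophage markers were abundant in all 6, with summed levels of the 7 listed genes of 5620 to 6102 RPM (reads per 1000000 of the normalized library) in Control and 5442 to 6024 in Cripto KO, and Ly6c2, the antigen gated as low, was at 2.44 to 3.42. One library went against its label: Control 1, labelled male like the others, had 2322 Xist reads, and 2, 0, 1 and 0 reads of the Y-linked genes Ddx3y, Eif2s3y, Kdm5d and Uty. In the other 5 libraries Xist was at 0.114 to 0.885 RPM and Ddx3y at 49.1 to 62.3. Control 2 stood apart in Lyz2, the gene in which LysMCre is inserted, at 11066 RPM against 21.2 to 28.3 in the other 5. Most fold changes and the main counts are therefore followed by their values without Control 1, and the counts over the 52 genes also by those without Control 1 and 2 together. Over all genes 17 differed between the groups at an adjusted p below 0.05 (limma, Benjamini-Hochberg over 13008 genes).

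Upstream sequences are shown first for the 4 interferon-stimulated genes with the smallest p in the comparison below whose promoter held the core of an interferon-stimulated response element, taken as GAAA, any 2 bases and GAAA again, searched on both strands with overlapping matches allowed. They are stretches of the 250 bases before the start site, from RefSeq on GRCm38.p6, read 5′ to 3′ on the strand of the gene, with the matches in capitals.
Rsad2 (chr12:26456538-26456597, minus strand): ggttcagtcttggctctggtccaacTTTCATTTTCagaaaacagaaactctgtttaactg
Bst2 (chr8:71537562-71537627, minus strand): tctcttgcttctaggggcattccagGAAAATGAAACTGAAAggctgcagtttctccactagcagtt
Oas1a (chr5:120907526-120907570, minus strand): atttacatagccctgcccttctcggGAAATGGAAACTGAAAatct
Ifit1 (chr19:34640760-34640838, plus strand): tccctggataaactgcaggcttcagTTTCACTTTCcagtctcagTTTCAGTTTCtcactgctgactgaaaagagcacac
The Rsad2 window had 1 match, starting 120 bases before the start site. Bst2 and Oas1a each had 2 overlapping matches, at 130 and 124 bases and at 20 and 14 bases before it, and Ifit1 had 2 separate ones at 104 and 85 bases. Of the 52 genes 42 had a promoter in the table used, and 14 of these, or 33.3%, held the motif, compared with 936 of 27025 genes, or 3.46%. The others among the 14 were Ifit3, Ifit3b, Oas3, Isg15, Trim30a, Phf11b, Slfn5, Ifitm2, Stat2 and Irf2. A match describes the letters in the window and not binding, and Oasl1, Irf7 and Ifih1 had none in it.

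Most interferon-stimulated genes had slightly higher mean levels in Control than in Cripto KO macrophages, and none passed the adjusted threshold with limma. The log2 fold change of Control over Cripto KO was above 0 for 44 of the 52, against 52.6% of all genes, with a median of 0.16 against 0.01. At an adjusted p below 0.05 the count was 0 of 52 by limma, against 0.131% of all genes, and 0 by edgeR, while DESeq2 called 2, against 0.547%. At an unadjusted p below 0.05 it was 11 of 52, or 21.2%, against 8.59% of all genes, and all 11 were higher in Control, a direction in which 4.60% of all genes reached that p. The value in every Control sample exceeded that in every Cripto KO sample for 8 genes, against 8.02% of all genes, and the reverse held for 0, against 6.43%. The 8 were Rsad2, Cmpk2, Bst2, Ifih1, Ifi204, Oasl1, Herc6 and Ifit1. In bulk RNA, fewer cells that express a gene and less RNA of it per cell cannot be told apart.

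**Figure D1:**
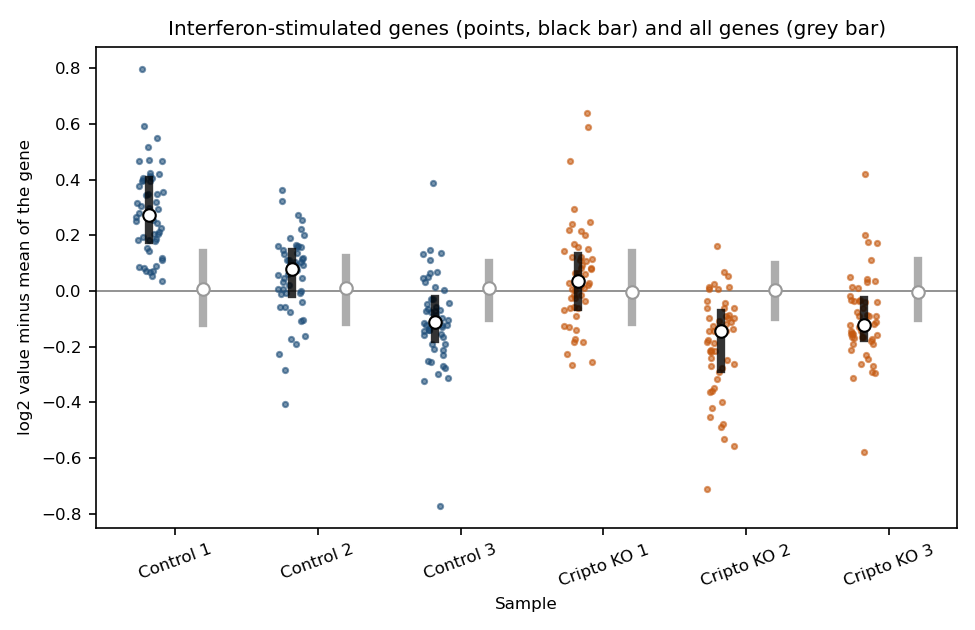
Deviation of each interferon-stimulated gene from its own mean over 6 samples, on a log2 scale, by sample (points, blue for Control and orange for Cripto KO). Black bars give the quartiles and the white dot the median of the 52 genes, and grey bars the same for all genes with a mean value of at least 1. The 52 genes were all above 0 in Control 1, with a median of 0.27, while the median of all genes was near 0 in every sample.

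The shift was unevenly spread over the samples. Control 1, the library at odds with its sex label, held the highest of the 6 values for 40 of the 52 genes, where it did so for 21.3% of all genes. Every one of the 52 lay above its own 6-sample mean there, with a median deviation of 0.27 on the log2 scale. The median deviation was 0.08 in Control 2 and -0.11 in Control 3. For Cripto KO 1, 2 and 3 it was 0.04, -0.14 and -0.12. Control 3 thus lay beside Cripto KO 2 and 3, and Cripto KO 1 lay above Control 3. Within the Cripto KO group, replicate 1 held the highest value for 37 of the 52, against 35.4% of all genes. Reads of the 52 genes together were 0.709% of all reads in Control 1, 0.574% in Control 2 and 0.557% in Control 3. For Cripto KO 1, 2 and 3 the shares were 0.595%, 0.528% and 0.577%.

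Without Control 1 the group difference was smaller. The median log2 fold change was 0.05, 36 of 52 genes were higher in Control against 52.0% of all genes, and 7 of 52 had an unadjusted p below 0.05 (limma) against 10.5%. Of these 7, Rsad2, Oasl1, Irf7 and Cmpk2 were higher in Control and Mx2, Stat2 and Ifitm2 were lower. Without Control 1 and 2 the median turned to -0.03, 23 of 52 were higher in Control against 53.3% of all genes, and 4 of 52 had an unadjusted p below 0.05 against 6.66%. These 4 were Rsad2 and Oasl1, higher in Control, and Mx2 and Stat2, lower. That last comparison has a single Control library, which is assumed to vary like the Cripto KO samples. With each of the 6 samples left out in turn, 33 genes were higher in Control in every fit, Mx2 was lower in every fit and the direction of 18 differed between fits. Rsad2 and Oasl1 were the 2 genes with an unadjusted p below 0.05 (limma) in all 6 fits. The matching shares over all genes were not counted. Any of these fits has most samples in common with the others, so the counts over all 6 do not measure stability.

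Leaving out single samples also moved the counts. With an unadjusted p below 0.05 (limma) there were 7 of 52 without Control 2, against 7.97% of all genes, and 15 without Control 3, against 6.80%. Without Cripto KO 1 there were 18, against 7.59%, but without Cripto KO 2 or 3 there were 4 each, against 7.63% and 5.70%. Groups that did not overlap, with Control higher, numbered 24 without Control 3, against 12.4% of all genes, 22 without Cripto KO 1, against 13.5%, and 8 without Control 1, against 15.8%. Over these same genes, Control 3 was the Control sample with the lowest median deviation and Cripto KO 1 the Cripto KO sample with the highest. Leaving either out was therefore expected to raise the count. Neither was picked in this way over all genes, so the shares of all genes are not a matched background.

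The spread within groups was wider for these genes than for others in their range of abundance, given here without a test. The SD of log2 values over the 3 samples had a median of 0.23 in Control and 0.17 in Cripto KO. For the 8358 genes with mean values in the range of the 52, from 7.01 to 658 RPM, the medians were 0.12 and 0.11. The SD exceeded that median for 42 of the 52 in Control and 38 in Cripto KO. It was larger in Control than in Cripto KO for 37 of 52 genes, or 71.2%, against 56.1% of those genes. The median SD in Control was 0.13 without Control 1 and 0.14 without Control 3, and that of Cripto KO was 0.092 without Cripto KO 1. Each of these libraries held the highest or the lowest value of its group for most of the 52 genes. Leaving it out tends to narrow the spread for that reason alone, so these values cannot show whether a single library set the order of the groups. Rsad2 had the smallest SD in Control, 0.03, and Samhd1, a nucleotide-hydrolysing restriction factor, the smallest in Cripto KO, 0.02. Ifi44 had the largest in both, 0.49 and 0.65.

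**Figure D2:**
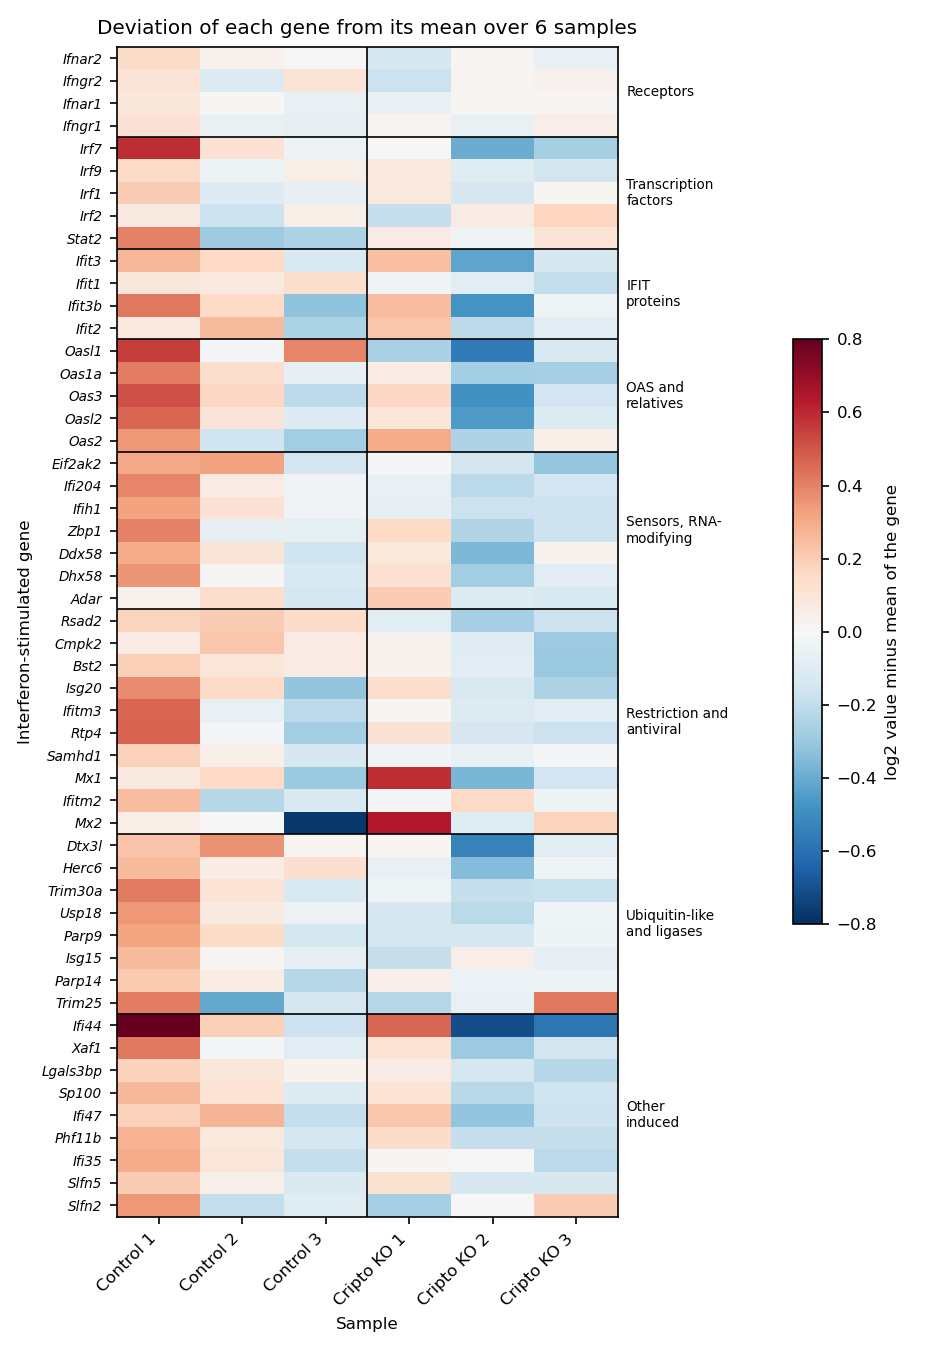
Deviation of the 52 genes (rows, ordered by role) from their means over the 6 samples (columns), in log2 units, red above and blue below the mean. The Control 1 column is red throughout, Control 3 is mostly blue, and the rows of Rsad2, Oasl1, Bst2 and Cmpk2 are among those in which every Control value is above every Cripto KO value.

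The receptors differed little. Ifnar1 and Ifnar2 encode the type I receptor, Ifngr1 and Ifngr2 that for interferon gamma, and their log2 fold changes ran from -0.01 to 0.12, and from -0.07 to 0.08 without Control 1. All 4 had their highest value in Control 1, against 21.3% of all genes. Ifnar2, the receptor chain with the most reads per kilobase and the largest difference, was at 230, 213 and 209 RPM in Control against 190, 210 and 199 in Cripto KO. The groups overlapped, and the log2 fold change was 0.12 ± 0.07 (standard error, unadjusted p = 0.113, adjusted p = 0.688, limma), or 0.08 without Control 1.

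Of the 5 transcription factors, Irf7 alone had an unadjusted p below 0.05 (limma), against 8.59% of all genes. IRF7 is the factor that amplifies interferon alpha production, and its transcript was the most abundant of the 5 per kilobase. It was at 463, 333 and 298 RPM in Control, a mean of 365 ± 87.0 (SD, 3 samples), and at 308, 233 and 255 in Cripto KO, a mean of 266 ± 38.6. Control 1 was well above the rest, and Control 3 was below Cripto KO 1. The log2 fold change was 0.44 ± 0.16 (unadjusted p = 0.0216, adjusted p = 0.512, limma), and 0.26 without Control 1 (unadjusted p = 0.0496). Irf9, the DNA-binding part of ISGF3, had a log2 fold change of 0.11, Irf1, an activator, 0.02, and Irf2, a repressor of many of the same promoters, -0.04. Without Control 1 these were 0.06, -0.07 and -0.08. Stat2 was at 78.2, 48.8 and 49.9 in Control against 62.1, 58.0 and 64.2 in Cripto KO, so that its highest and its lowest values were both in Control. The fold change was -0.09 on the log2 scale with all samples and -0.31 without Control 1.

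The 4 IFIT genes lie together on chromosome 19, with Ifit2, Ifit3, Ifit3b and Ifit1 in that order between positions 34550694 and 34650009 (GRCm38). They encode cytoplasmic antiviral proteins, of which IFIT1 binds RNA that lacks the host cap methylation. All 4 were higher in Control, against 52.6% of all genes, with log2 fold changes of 0.05 to 0.21 (0.01 to 0.21 without Control 1). An unadjusted p below 0.05 (limma) was found for 0 of 4, against 8.59% of all genes. Ifit1, at 21.4, 21.2 and 22.1 in Control against 19.7, 18.9 and 17.6 in Cripto KO, was the one whose groups were separate, and its log2 fold change was 0.20 ± 0.09 (unadjusted p = 0.0554, limma), or 0.21 without Control 1. Ifit3, the most abundant per kilobase, was at 70.1, 65.1 and 53.5 in Control against 68.7, 43.5 and 53.2 in Cripto KO, and the groups overlapped over most of their range. At 0.21 ± 0.16, its log2 fold change (unadjusted p = 0.235, limma) went to 0.12 without Control 1. Ifit3 and Ifit3b share much sequence: 61.8% of the 31-base words of Ifit3 transcripts occur in Ifit3b and 54.1% the other way, so the division of reads between them is uncertain.

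The oligoadenylate synthetase family held the largest difference. The OAS enzymes make 2′-5′-linked oligoadenylates on double-stranded RNA, which activate RNase L, and OASL1 lacks that activity. Oasl1, which in mice is known to restrain translation of Irf7 mRNA, was at 222, 151 and 198 RPM in Control, a mean of 190 ± 36.1. It was at 127, 103 and 139 in Cripto KO, a mean of 123 ± 18.5. The lowest Control value was above the highest Cripto KO value. The log2 fold change was 0.62 ± 0.15, or 1.54-fold (unadjusted p = 0.0025, adjusted p = 0.365, limma). It ranged from 0.50 to 0.78 with 1 sample left out, was 0.50 without Control 1 and was 0.70 without Control 1 and 2. By DESeq2 on the recovered reads Oasl1 passed the threshold, with an adjusted p of 0.00297, in a test that called 0.547% of all genes. Its neighbour Oasl2, 11005 bases away on chromosome 5, had a log2 fold change of 0.31, or 0.16 without Control 1, and overlapping groups.

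Oas1a, the other family member with an unadjusted p below 0.05, was at 146, 120 and 105 in Control against 115, 91.1 and 91.4 in Cripto KO. Control 3 lay below Cripto KO 1, and the log2 fold change was 0.31 ± 0.13 (unadjusted p = 0.0384, adjusted p = 0.548, limma), or 0.19 without Control 1 (unadjusted p = 0.127). Of its 31-base words 68.7% are shared with Oas1g, so its value may hold reads of that gene. Oas3 had a log2 fold change of 0.31 and Oas2, which lies 3244 bases from it, one of -0.06. Without Control 1 these were 0.13 and -0.25, and without Control 1 and 2 Oas3 was at -0.05. All 5 genes of the family had their highest value in Control 1, against 21.3% of all genes.

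**Figure D3:**
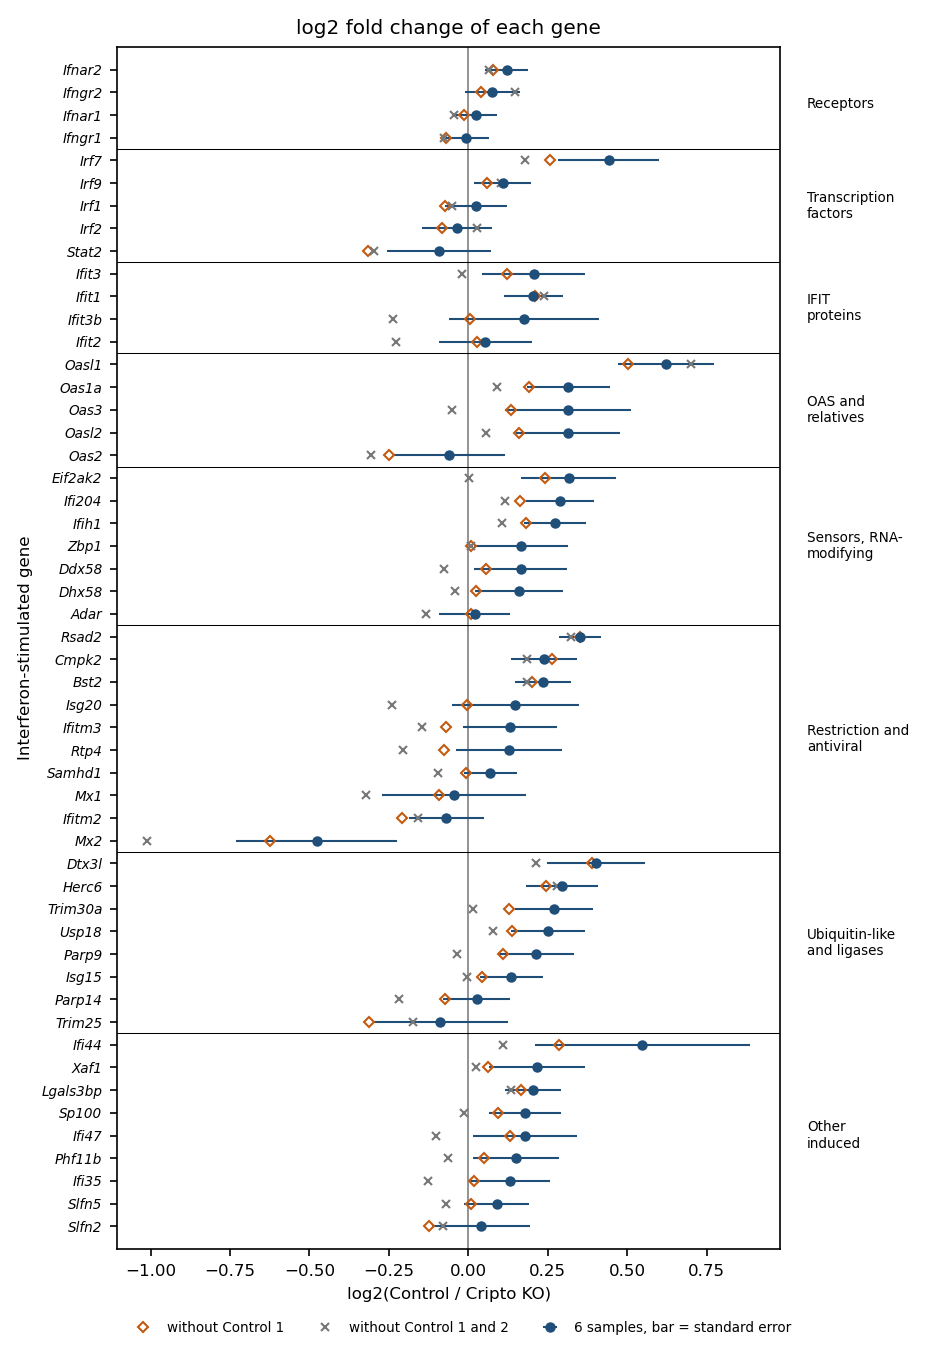
log2 fold change of Control over Cripto KO for the 52 genes by role. Blue points with bars give the value and standard error from 6 samples, orange diamonds the value without Control 1 and grey crosses that without Control 1 and 2. Rsad2 and Oasl1 kept values of 0.32 or more in all 3, while most genes moved toward or below 0.

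Among the 7 sensors and RNA-modifying enzymes, all were higher in Control, against 52.6% of all genes. An unadjusted p below 0.05 (limma) was found for 2, against 8.59% of all genes. Ifih1 encodes MDA5, a sensor of long double-stranded RNA, and was at 54.1, 47.0 and 42.5 in Control against 41.4, 38.4 and 38.6 in Cripto KO. The groups did not overlap, though Control 3 and Cripto KO 1 were close. Its log2 fold change was 0.27 ± 0.10 (unadjusted p = 0.0219, adjusted p = 0.512, limma), or 0.18 without Control 1 (unadjusted p = 0.0731). Ifi204, a DNA-binding member of the PYHIN family, was the most abundant sensor per kilobase, at 230, 184 and 172 in Control against 168, 151 and 157 in Cripto KO. These groups were also separate by a small margin, with a log2 fold change of 0.29 ± 0.11 (unadjusted p = 0.0239, adjusted p = 0.522, limma), or 0.16 without Control 1. Its family has close copies, and 33.1% of its 31-base words occur in other genes of the table. Eif2ak2, the kinase PKR that halts translation on double-stranded RNA, was at 21.6, 21.9 and 15.7 in Control against 17.3, 15.8 and 14.1 in Cripto KO. Control 3 fell among the Cripto KO values, and the log2 fold change of 0.32 ± 0.15 (unadjusted p = 0.0641, limma) was 0.24 without Control 1 and 0.00 without Control 1 and 2. For Ddx58, which encodes RIG-I, Dhx58, a regulator of both RNA helicases, and Zbp1, a sensor of Z-form nucleic acid, the log2 fold changes were 0.16 to 0.17 with 6 samples and 0.01 to 0.06 without Control 1. Adar, the adenosine deaminase that edits double-stranded RNA, was at 0.02, and at 0.01 without Control 1.

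The restriction factors and antiviral effectors held the gene with the smallest p and the one large value in the opposite direction. Rsad2 encodes viperin, which makes a chain-terminating nucleotide from CTP. It was at 185, 187 and 180 RPM in Control, a mean of 184 ± 3.42, and at 153, 136 and 145 in Cripto KO, a mean of 144 ± 8.66. The groups were far apart relative to their spread, and Control 1 was not the highest sample. The log2 fold change was 0.35 ± 0.07, or 1.28-fold (unadjusted p = 0.00048, adjusted p = 0.156, limma). It was 0.35 without Control 1 (unadjusted p = 0.00105), 0.32 without Control 1 and 2, and 0.31 to 0.39 with any 1 sample left out. By DESeq2 its adjusted p was 0.0228. Rsad2 carries 1 of the printed motif matches.

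Cmpk2, which encodes a mitochondrial nucleotide kinase that supplies CTP, lies 12751 bases from Rsad2 on chromosome 12 and points away from it. It was at 33.9, 37.7 and 33.8 in Control against 33.0, 30.3 and 26.4 in Cripto KO, so that the groups were separate by less than 1 RPM. Cmpk2 had a log2 fold change of 0.24 ± 0.10 (unadjusted p = 0.0452, adjusted p = 0.562, limma), or 0.26 without Control 1 (unadjusted p = 0.0487). Bst2, the tetherin that holds budding virus at the cell surface, was at 377, 352 and 346 in Control against 336, 311 and 269 in Cripto KO. These groups were separate as well, with a log2 fold change of 0.24 ± 0.09 (unadjusted p = 0.0249, adjusted p = 0.523, limma), or 0.20 without Control 1 (unadjusted p = 0.0623).

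Mx2 was the one gene with a log2 fold change below -0.10. It encodes a dynamin-like GTPase of the Mx family, and the annotation lists the mouse gene as a polymorphic pseudogene. Mx2 was at 10.5, 10.1 and 5.92 in Control against 15.7, 9.45 and 11.4 in Cripto KO, and the groups overlapped. The log2 fold change was -0.48 ± 0.25 (unadjusted p = 0.0926, adjusted p = 0.663, limma), and without Control 1 it was -0.62 (unadjusted p = 0.0453). Its neighbour Mx1, whose allele in C57BL/6 mice is known to be defective, was at -0.05, or -0.09 without Control 1. Both Mx genes had their highest value in Cripto KO 1.

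Ifitm3, which blocks fusion of viruses with endosomes, was the most abundant of the 52 genes per kilobase. It was at 428, 297 and 268 in Control against 312, 287 and 291 in Cripto KO, with Control 1 high and Control 3 lowest of all. Its log2 fold change was 0.13 ± 0.15 (unadjusted p = 0.404, limma) and turned to -0.07 without Control 1. Its relative Ifitm2 was at -0.07 with 6 samples and -0.21 without Control 1. Rtp4, a chaperone-like zinc protein, and Isg20, an exonuclease, were at 0.13 and 0.15, and Samhd1 was at 0.07. Without Control 1 all 3 were below 0, at -0.076, -0.0034 and -0.0062.

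Of the 8 genes of the ubiquitin-like modifier pathway and its ligases, 7 were higher in Control, against 52.6% of all genes. An unadjusted p below 0.05 (limma) was found for 2, against 8.59% of all genes. Dtx3l, an E3 ligase that works with PARP9, was at 28.5, 31.2 and 24.5 in Control against 24.6, 16.8 and 22.9 in Cripto KO. Control 3 fell just under Cripto KO 1, and the log2 fold change was 0.40 ± 0.15 (unadjusted p = 0.0279, adjusted p = 0.524, limma), or 0.39 without Control 1 (unadjusted p = 0.0541). Parp9, which overlaps the start of Dtx3l on the other strand of chromosome 16, was at 0.21, and the library kit does not mark the strand that would tell their shared reads apart. For Parp14, a further ADP-ribosyltransferase in that cluster, the log2 fold change was 0.03. Without Control 1 Parp9 was at 0.11 and Parp14 at -0.07. Herc6, the ligase that attaches ISG15 to proteins in mice, was at 26.5, 23.2 and 24.4 in Control against 21.4, 17.4 and 21.7 in Cripto KO, without overlap. Herc6 had a log2 fold change of 0.30 ± 0.11 (unadjusted p = 0.0282, adjusted p = 0.524, limma), or 0.24 without Control 1 (unadjusted p = 0.0827). Of its 31-base words 12.7% are shared with Gm45193.

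Isg15, the modifier itself and the most abundant of the 8 per kilobase, was at 109, 93.0 and 87.3 in Control against 80.7, 95.2 and 87.0 in Cripto KO. The groups overlapped, and the log2 fold change of 0.14 ± 0.10 (unadjusted p = 0.203, limma) was 0.04 without Control 1. Usp18, the protease that removes ISG15 and damps receptor signaling, was at 0.25, and Trim30a, a TRIM-family protein, at 0.27, both with overlapping groups. Without Control 1 they were at 0.14 and 0.13. Trim25, the ligase that acts on RIG-I, was at -0.09, or -0.31 without Control 1, with values from 389 to 683 in Control and 441 to 689 in Cripto KO.

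The other 9 induced genes were all higher in Control with 6 samples, against 52.6% of all genes. Of the 9, 8 had their highest value in Control 1, against 21.3% of all genes. Lgals3bp, a secreted glycoprotein that binds galectins, was the one with an unadjusted p below 0.05 (limma), against 8.59% of all genes. It was at 743, 698 and 669 in Control against 685, 593 and 559 in Cripto KO, with Control 3 below Cripto KO 1. For Lgals3bp the log2 fold change was 0.20 ± 0.09 (unadjusted p = 0.0444, adjusted p = 0.561, limma), or 0.16 without Control 1 (unadjusted p = 0.105). Ifi44, a weakly expressed gene of the interferon response, had the largest log2 fold change of the 9, 0.55, but a standard error of 0.34. It was 0.29 without Control 1 and 0.92 without Cripto KO 1. Ifi44 was at 11.4, 7.45 and 5.84 in Control against 9.05, 4.00 and 4.38 in Cripto KO, so that the ranges overlapped (unadjusted p = 0.141, limma). Slfn2, a Schlafen protein and the most abundant of the 9 per kilobase, was at 516, 355 and 379 in Control against 337, 407 and 466 in Cripto KO. Its log2 fold change was 0.04 ± 0.15, and -0.12 without Control 1. Sp100, Xaf1, Phf11b, Ifi47, Ifi35 and Slfn5 ranged from 0.09 to 0.22, and from 0.01 to 0.13 without Control 1, with overlapping groups. Of the 31-base words of Phf11b 44.5% are shared with Phf11a.

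**Figure D4:**
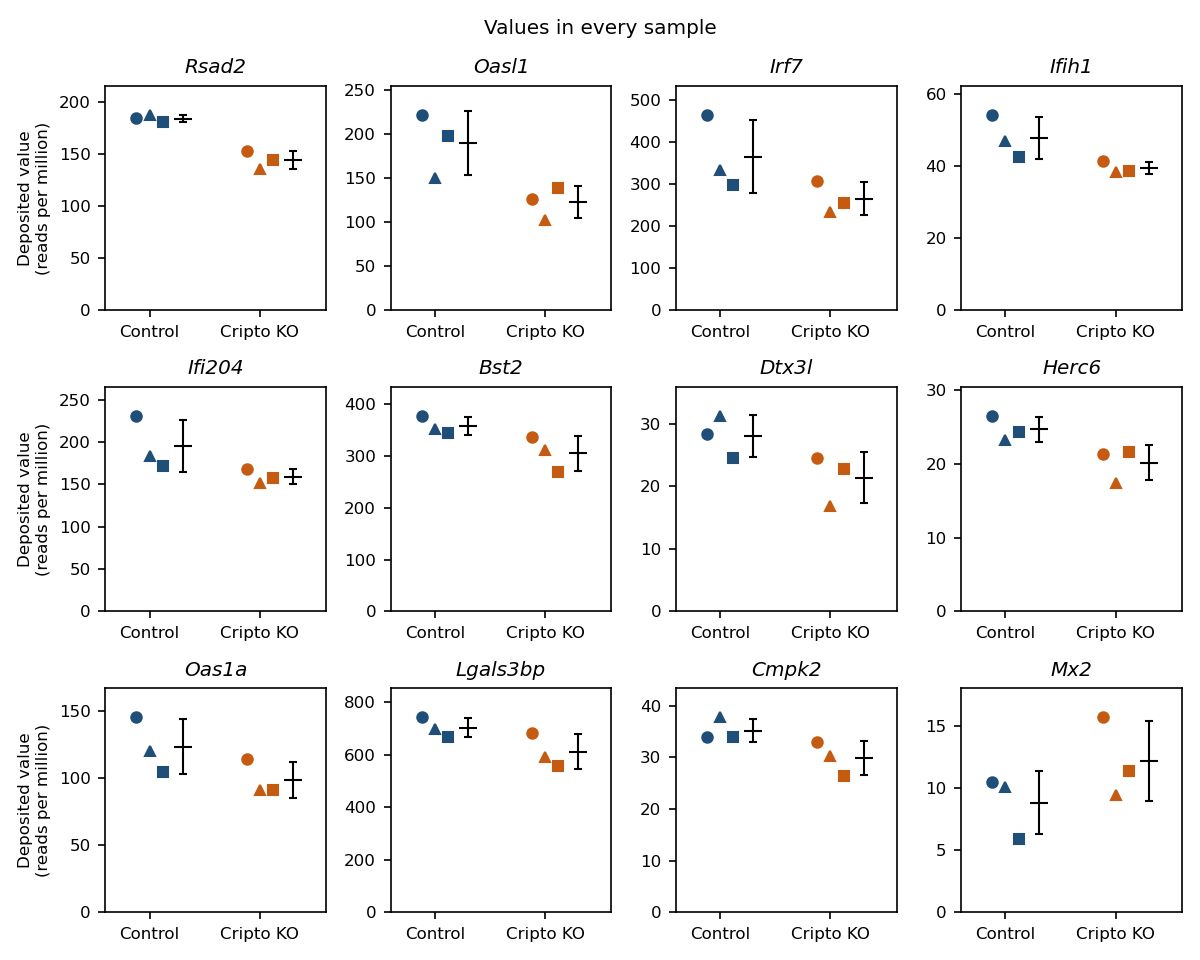
Values in RPM of the 11 genes with an unadjusted p below 0.05 and of Mx2 in every sample (circle, triangle and square for replicates 1, 2 and 3), with the mean and SD of 3 samples in black. Each axis starts at 0. Rsad2 shows narrow and separate groups, Irf7, Ifi204 and Oas1a a high Control 1, and Mx2 is higher in Cripto KO with overlap.

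The rest of the pathway was read from lists of 82 further genes present in the table. None passed the adjusted threshold with limma and 1, Cxcl9, did with DESeq2. An unadjusted p below 0.05 was found for 13 (limma), against 8.59% of all genes, and 66 were higher in Control, against 52.6%. Their log2 fold changes had a median of 0.12. Without Control 1 the median was 0.04, 51 of the 82 were higher in Control, against 52.0% of all genes, and 9 had an unadjusted p below 0.05, against 10.5%. For the production of interferon, 14 of 22 listed symbols were present, and those absent include Sting1 and Cgas, other names of Tmem173 and Mb21d1, which were present. Of these 14 genes, 2 were higher and 1 lower in Control at an unadjusted p below 0.05 (limma), against 8.59% of all genes in either direction. Ifnb1, the interferon beta transcript, was at 1.07, 1.17 and 3.06 in Control against 2.00, 1.45 and 1.07 in Cripto KO, with overlapping groups. Tmem173, which encodes the DNA-response adaptor STING, had the smallest p of that list, at 55.7, 60.7 and 54.4 in Control against 51.3, 46.4 and 47.5 in Cripto KO. The groups were separate, with a log2 fold change of 0.23 ± 0.08 (unadjusted p = 0.0155, adjusted p = 0.494, limma), or 0.25 without Control 1.

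Of the 11 receptor kinases, signal transducers and feedback genes, 2 had an unadjusted p below 0.05 (limma), against 8.59% of all genes, both higher in Control. Without Control 1 there were also 2, against 10.5%. Of 57 other stimulated genes, 47 were higher in Control, against 52.6% of all genes, and 40 had their highest value in Control 1, against 21.3%. An unadjusted p below 0.05 (limma) was found for 8, against 8.59%, all higher in Control. Without Control 1, 35 were higher in Control, against 52.0% of all genes, and 4 had such a p, against 10.5%. Cxcl9, a chemokine best known as a target of interferon gamma, was at 14.6, 13.2 and 10.2 in Control against 7.08, 8.32 and 5.48 in Cripto KO. The groups were separate, with a log2 fold change of 0.87 ± 0.19 (unadjusted p = 0.0015, adjusted p = 0.285, limma, and 0.0203 by DESeq2), or 0.76 without Control 1.

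The interferon-inducible GTPases, which answer interferon gamma as well, had 12 of 15 genes higher in Control, against 52.6% of all genes, and 4 at an unadjusted p below 0.05 (limma), against 8.59%. Their highest value was in Control 1 for 11 of the 15, and without it 10 were higher in Control, against 52.0%, and 4 had such a p, against 10.5%. Gbp2, a guanylate-binding protein that attacks pathogen vacuoles, was at 58.2, 48.9 and 45.1 in Control against 36.7, 34.5 and 31.9 in Cripto KO, without overlap. Gbp2 had a log2 fold change of 0.55 ± 0.11 (unadjusted p = 0.000563, adjusted p = 0.166, limma), with an adjusted p of 0.00538 by DESeq2. It was 0.45 without Control 1 and 0.39 without Control 1 and 2.

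Transcripts of other cell types differed between libraries. The summed level of the 4 skeletal muscle genes present of 5 listed was 57.4, 27.5 and 25.5 RPM in Control against 38.4, 12.2 and 9.10 in Cripto KO. Control 1 was the highest and Cripto KO 1 the highest of its group, as for most interferon-stimulated genes. The same held for the summed Ly6C-high monocyte genes and the summed B cell genes given below. No measure of likeness was computed. Plac8, a gene of Ly6C-high monocytes, was at 29.2, 17.4 and 15.5 in Control against 18.6, 12.8 and 13.7 in Cripto KO, while the sum of the 6 genes of that list ran from 85.4 to 112 in Control and 94.1 to 107 in Cripto KO. The 5 fibroblast genes summed to 340 to 360 in Control and 407 to 451 in Cripto KO, without overlap. Of the 6 plasmacytoid dendritic cell genes, the cells that make most interferon alpha, 3 were present, and their sum ran from 50.7 to 66.0 in Control and 46.6 to 59.4 in Cripto KO, with Siglech at 0.956 to 2.41. Neutrophil genes, 5 of 6 present, summed to 98.5 to 105 and 93.1 to 101, with S100a9 at 0 reads in all samples. B cell genes, 3 of 4 present, summed to 6.16 to 11.01 and 8.11 to 8.92. The 5 endothelial genes summed to 36.7 to 44.7 and 35.0 to 41.5, and 0 of 7 T and NK cell genes were in the table. The part of these transcripts, of the Xist and Y-linked difference of Control 1 and of the Lyz2 difference of Control 2 in the values of the interferon-stimulated genes was not tested.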

How the data were processed

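Total RNA of 6 sorted macrophage samples was sequenced by the submitters. Per the study's methods and the submitters' processing notes, reads were checked with FastQC, trimmed with cutadapt 1.7.1 (minimum length 30), quantified on the mouse transcriptome (GRCm38, Ensembl release 91) with RSEM 1.2.20, which divides reads shared between genes, and processed with limma and edgeR. The deposited table holds a normalized signal per gene and sample. Its values were found to be (reads + 0.5) per 1000000 of a normalized library size, and 100% of 78048 values gave whole reads within 0.01. They are called RPM in the text.

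The signal values were put on a log2 scale with no pseudocount and fitted with limma 3.58.1 (variance trend, R 4.3.3) on all 13008 genes, Control against Cripto KO, with Benjamini-Hochberg adjustment and a threshold of 0.05. Values per kilobase used summed exon lengths, and gene positions came from GENCODE M21 (GRCm38), in which 12998 genes were placed. edgeR 4.0.16 (quasi-likelihood) and DESeq2 1.42.0 were run on the recovered reads as alternatives, and pseudocounts, filters, scalings and samples were varied. The scripts were tested on simulated data. The 52 genes, their roles and the pathway and marker lists were chosen with earlier results of these data known, and counts over them carry no test. Values in every sample are given for genes with an unadjusted p below 0.05 and, in each role group, for the most abundant per kilobase and the largest log2 fold change, and of each pathway list the gene with the smallest p, except where an item is not reported here. Ifit1, Stat2, Ifnb1 and genes given by a fold change alone were added after their values were seen. The labels do not say that the 3 samples of a group are separate animals, while the study gives 3 biological replicates for its plot of these data. The limma p-values compare the difference between groups with the spread of these samples within them, which limma estimates partly from all genes. The table of upstream sequences lacked 10 of the 52 genes.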

Additional observations from a re-analysis of the deposited data

How the results depend on the processing

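The count of interferon-stimulated genes past the adjusted threshold was 0 in every limma and edgeR fit. DESeq2 called 2 of them, Oasl1 and Rsad2, with 1 further pathway gene, Cxcl9, the GTPase genes Gbp2 and Gbp3, and 71 genes in all (edgeR and limma 17 each). At an unadjusted p below 0.05 there were 9 by edgeR (8.47% of all genes), 11 by DESeq2 (5.83%), 5 after quantile normalization (8.02%) and 4 without the variance trend (7.67%), beside 11 by the limma fit reported (8.59%), so that under quantile normalization and without the trend the share of the 52 was near that of all genes. Genes past the adjusted threshold over the whole table were 6 after quantile normalization, 5 without the trend and 31 with robust estimation. Quantile normalization also left 5 of the 52 with groups that did not overlap, and the matching share over all genes was not counted. It put Slfn2 at a log2 fold change of -0.0032.

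With 1 sample left out, the genes of the 52 with an unadjusted p below 0.05 numbered 4 to 18, those without overlap 8 to 24, and all genes past the adjusted threshold 5 to 31. The median SD within groups ran from 0.13 to 0.28 in Control, the lowest without Control 1, and from 0.092 to 0.18 in Cripto KO, the lowest without Cripto KO 1. Ifitm3 ran from -0.069 to 0.27 and Slfn2 from -0.12 to 0.15, turning sign without Control 1 (Slfn2 also without Cripto KO 1). Without Control 1 and 2, an alternative chosen after seeing the data, 4 of the 52 had an unadjusted p below 0.05, 23 were higher in Control, and the median log2 fold change was -0.028. There Ifit3 was at -0.019, Ifitm3 at -0.15, Isg15 at -0.0031 and Slfn2 at -0.078.

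The labels number the samples of each group 1 to 3, and same-numbered samples did not deviate together (Pearson r of -0.21, -0.0052 and -2.46e-05 over 11960 genes). For samples with unlike numbers r ran from -0.153 to 0.139, and it was 0.139, -0.138 and 0.125 under the numbering of the study's supplement. Deviations from a mean of 3 samples constrain each other, so these values cannot show whether samples were paired. With the replicate number as a block 2 genes in all and 0 of the 52 passed the threshold, and with the other numbering that the supplement gives the Control samples, also tried after seeing the data, 11 and 0. The cause of these changes was not tested. At 12688968 reads or more per library, every one of the 52 genes was well above the floor of 3 reads.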
